A study of Mus musculus with 8 samples.

Results

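The genes described here encode the nuclear pore complex and the soluble receptors that carry cargo through it. They were chosen by gene symbol alone: nucleoporins (Nup with a number, Nupl1 and Nupl2), importins (Kpna, Kpnb and numbered Ipo genes), exportins (numbered Xpo genes and Cse1l), the transportins Tnpo1 to Tnpo3, the Ran cycle genes Ran, Ranbp1, Rangap1 and Rcc1, and Ranbp2 (grouped here with the cytoplasmic filaments it forms), Tpr, Rae1, Ndc1, Aaas, Seh1l and Sec13. Of 16590 genes with a named probe on the array, 48 met this rule, and 42 of them passed the filter on detection and were tested. Tpr had no matched probe and was not analysed here. The rule used no measured value, but the family was put forward with the outcome of this comparison already known, so its counts are a description of its members and no evidence about the family.

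Messenger RNA was measured in mouse embryonic fibroblasts (MEFs) on 8 Illumina bead arrays. The 5-aza-dC group was grown for 72 h with 5-aza-2'-deoxycytidine, a cytidine analogue that is built into DNA and traps DNA methyltransferases. Its dose was 1 µM in the labels (the methods of the study state a lower dose, and which of them holds is not settled here). The DMSO group was given the solvent alone. The cells of both groups were Trp53-/-, without the tumour suppressor p53, and Dnmt1+/+, with intact maintenance methyltransferase, and the comparison asks which genes are expressed differently once an inhibitor has lowered DNA methylation. A group consisted of 2 biological replicates, and the 2 technical arrays of each replicate were averaged (n = 2 per group). The study states that treated and control cells came from a shared starting population. Nothing in the labels says that the replicates came from separate embryos, and p-values then measure the spread between these cultures only.

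The nuclear pore is a channel through the nuclear envelope, built from stacked rings of scaffold nucleoporins, a central mesh of flexible phenylalanine-glycine (FG) repeats, filaments on the cytoplasmic face and a basket on the nuclear face. Importins bind nuclear localisation signals in the cytoplasm and release their cargo when they meet Ran bound to GTP in the nucleus, while exportins pick up cargo together with Ran-GTP and release it once the GTP is hydrolysed outside. The guanine nucleotide exchange factor Rcc1 on chromatin and the GTPase-activating protein Rangap1 at the cytoplasmic face keep the Ran gradient that gives transport its direction.

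Of the 42 genes tested, 28 were higher in 5-aza-dC MEFs and 0 were lower at an adjusted p under 0.05 (limma, adjusted by Benjamini-Hochberg over all 9502 genes tested). At an unadjusted p under 0.05 the counts were 32 higher and 0 lower, against 2763 higher and 2743 lower among all 9502 genes tested. The higher genes were found among subunits of every part of the pore, all 4 importin alpha adaptors tested and 3 of the 4 Ran cycle genes, by 1.35-fold to 3.43-fold. Over the 42 genes the median log2 fold change (5-aza-dC minus DMSO, as throughout) was 0.66, and over all genes tested it was -0.02. For comparison, 26.3% of all genes tested were higher in 5-aza-dC and 25.7% lower, together 52%, so that a changed gene is the rule in this experiment. The share of all genes called was lower with a single DMSO culture: 1568 genes were higher without DMSO replicate 1 and 1618 without DMSO replicate 2, against 2497 with both, and the counts of nuclear pore and transport genes were 21 and 23. In 39 of the 42 genes both 5-aza-dC replicates lay on one side of both DMSO replicates, as they did in 76.5% of all genes tested.

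**Figure D1:**
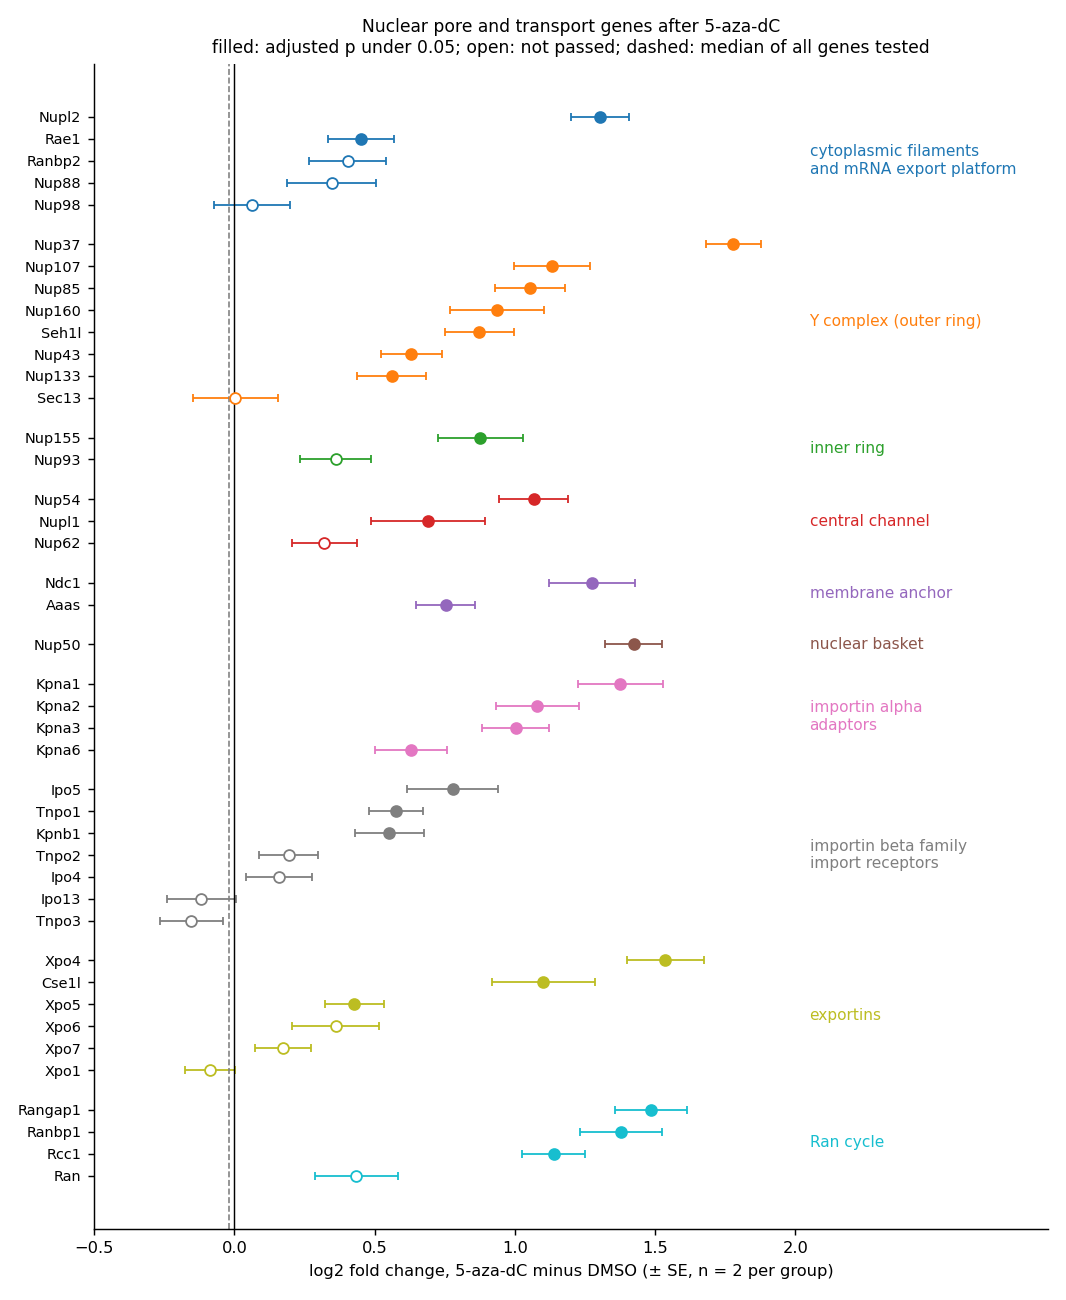
Log2 fold change (x axis, 5-aza-dC minus DMSO, ± SE, n = 2 per group) of each of the 42 nuclear pore and transport genes, ordered by role from top to bottom. Filled points passed an adjusted p of 0.05 and open points did not, and the 28 filled points lie right of 0 while the genes at or left of 0 are all open.

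The regulatory DNA of 5 of these genes is shown because 5-aza-dC acts on methylation at CpG and because they span the outcomes: Nup37 had the highest fold change, Rangap1 and Ranbp1 were the leading Ran cycle genes, Ran missed the threshold and Sec13 had a log2 fold change of 0.00. Each line is the 250 bases before the annotated start of the gene, 5′ to 3′ on the strand of the gene (RefSeq, GRCm38.p6), and capitals mark matches to 8 short motifs, both strands searched, spelled out further on. The windows lie at chr10:88146742-88146991 on the plus strand (Nup37, 24 CpG), chr15:81729920-81730169 on the minus strand (Rangap1, 22 CpG), chr16:18248695-18248944 on the minus strand (Ranbp1, 32 CpG), chr5:129019906-129020155 on the plus strand (Ran, 49 CpG) and chr6:113740682-113740931 on the minus strand (Sec13, 14 CpG).
Nup37: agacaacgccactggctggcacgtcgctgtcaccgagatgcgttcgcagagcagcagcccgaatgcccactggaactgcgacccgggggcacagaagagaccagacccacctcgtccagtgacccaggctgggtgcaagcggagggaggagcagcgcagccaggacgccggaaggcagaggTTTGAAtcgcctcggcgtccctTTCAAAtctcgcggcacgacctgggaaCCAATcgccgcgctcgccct
Rangap1: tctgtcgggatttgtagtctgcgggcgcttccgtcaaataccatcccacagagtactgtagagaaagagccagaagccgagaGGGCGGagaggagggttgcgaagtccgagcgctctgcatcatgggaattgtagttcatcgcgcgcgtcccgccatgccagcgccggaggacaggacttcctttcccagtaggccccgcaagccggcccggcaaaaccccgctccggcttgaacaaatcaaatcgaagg
Ranbp1: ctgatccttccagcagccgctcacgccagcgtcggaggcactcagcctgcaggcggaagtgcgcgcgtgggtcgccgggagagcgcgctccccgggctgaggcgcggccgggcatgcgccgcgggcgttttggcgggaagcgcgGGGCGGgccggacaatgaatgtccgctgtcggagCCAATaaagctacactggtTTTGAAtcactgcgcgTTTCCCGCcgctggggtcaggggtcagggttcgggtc
Ran: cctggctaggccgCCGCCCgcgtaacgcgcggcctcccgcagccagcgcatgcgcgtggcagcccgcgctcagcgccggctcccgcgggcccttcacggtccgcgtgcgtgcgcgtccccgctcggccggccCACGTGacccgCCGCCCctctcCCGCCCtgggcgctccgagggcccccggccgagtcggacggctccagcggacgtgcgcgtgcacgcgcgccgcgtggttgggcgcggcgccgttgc
Sec13: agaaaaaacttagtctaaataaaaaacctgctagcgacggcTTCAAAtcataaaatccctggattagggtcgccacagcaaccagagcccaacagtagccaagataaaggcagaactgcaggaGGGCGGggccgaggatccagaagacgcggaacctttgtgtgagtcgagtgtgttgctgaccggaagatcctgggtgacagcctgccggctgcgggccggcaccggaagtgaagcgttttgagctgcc

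The motifs searched were CCAAT (the CCAAT box), TTTGAA (the cell cycle homology region, CHR), TTTCCCGC and TTTGGCGC (forms of the E2F site), TGCGCA (the NRF1 half-site), CACGTG (the E-box), GGGCGG (the GC box) and TATAAA (the TATA box), none of which contains another. Nup37 held a CCAAT match close to its start and 2 CHR matches, and Ranbp1 held a CCAAT, a CHR, an E2F and a GC box match. Rangap1 held a GC box match alone, Ran an E-box match and 3 GC box matches, and Sec13 a CHR and a GC box match, so that the genes with the highest fold change and with a fold change near 0 both held CHR letters. Promoters, 1 per gene at its most upstream annotated start, were used for 33 of the 42 genes tested. Chromosome 18, which holds Seh1l, was left out of all promoter counts. A CCAAT match stood in 45.5% of them, against 36.8% of the 7720 promoters of all genes tested, a CHR match in 27.3%, against 10.6%, and a GC box match in 72.7%, against 59.5%. The first E2F form stood in 1 of the 33 promoters (3.03%, against 1.72%) and the second in 0 (against 0.738%). The NRF1 half-site stood in 12.1%, against 12.3%, the E-box in 15.2%, against 8.67%, and the TATA box in 6.06%, against 6.94%. Among the 27025 promoters of annotated genes outside chromosome 18 the shares were 34.5% for CCAAT, 16.3% for CHR, 33% for the GC box and 6.04% for the E-box.

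Matches stood both in promoters of genes that were higher and in promoters of genes that did not pass. Promoters were at hand for 20 of the 28 genes that were higher and for 13 of the 14 that did not pass. The higher genes without one were Xpo4, Kpna1, Cse1l, Nup85, Kpna3, Seh1l, Nup43 and Kpna6, so the shares of the higher genes leave out several of the larger rises. Of the 20 promoters of genes that were higher, 8 held a CCAAT match (40%) and 5 a CHR match (25%). The shares over the 2005 promoters of all genes that were higher were 34.4% and 12%. Of the 13 promoters of genes that did not pass, 7 held a CCAAT match and 4 a CHR match. The E-box stood in 1 of the 20 promoters of higher genes (5%, against 8.88% of the 2005) and in 4 of the 13 others. These windows were rich in CpG: the median number of CpG was 21.5 in the promoters of higher genes (lowest 5, highest 42) and 17 in those that did not pass (lowest 11, highest 49). The median was 16 over all genes tested and 17 over the 2005 promoters of all genes that were higher. A match gives letters only, and methylation of these windows was not measured on the arrays.

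The Y complex is the repeated building block of the outer rings of the pore, on both faces of the envelope, and 7 of its 8 subunits on the array rose in 5-aza-dC MEFs. Nup37, a small beta-propeller subunit of the Y complex, had normalised log2 levels of 7.74 and 7.75 in the 5-aza-dC replicates, against 5.94 and 5.99 in the DMSO replicates. The groups were far apart and the replicates of each nearly equal, and Nup37 rose by 1.78 ± 0.10 (log2 scale, ± SE as throughout, with n = 2 in each group; limma adjusted p = 0.000102), the highest fold change of the 42 genes (3.43-fold). On single arrays it had 223, 239, 242 and 248 intensity units before normalisation with 5-aza-dC, against 91.2, 99.0, 90.6 and 93.0 with DMSO.

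Nup107, which joins the stem of the Y to Nup133, had log2 levels of 8.90 and 8.62 in 5-aza-dC, against 7.57 and 7.69 in DMSO, and rose by 1.13 ± 0.13 (limma adjusted p = 0.00121). Nup85, a subunit of one arm of the Y, had 10.61 and 10.42 in 5-aza-dC, against 9.48 and 9.44 in DMSO, and rose by 1.05 ± 0.12 (limma adjusted p = 0.00117). In both genes 5-aza-dC replicate 1 was the highest culture and the groups did not overlap. The other arm subunit, Nup160, rose by 0.94, the adaptor Seh1l by 0.87, the peripheral beta-propeller Nup43 by 0.63 and the end of the stem, Nup133, by 0.56. The last of these calls depend on the DMSO cultures: without DMSO replicate 1 the adjusted p was 0.0652 for Nup43 and 0.118 for Nup133, and without DMSO replicate 2 it was 0.0559 and 0.0821. Over the 3 kept probes of Seh1l the log2 fold change ran from 0.26 to 0.87 and over those of Nup133 from 0.10 to 0.56, where the mean of the probes gave 0.37. The Nup133 probe at 0.10 was dim, detected on 3 of 4 arrays in 5-aza-dC and on 1 of 4 in DMSO. Its remaining probe gave 0.46.

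Sec13, the remaining subunit, also serves in the COPII coat of vesicles that leave the endoplasmic reticulum. It had log2 levels of 12.57 and 12.57 in 5-aza-dC, against 12.55 and 12.57 in DMSO, a log2 fold change of 0.00 ± 0.15 (limma adjusted p = 0.988). Its 4 cultures overlapped, and it was the single Y complex subunit tested that did not pass. With arrays scaled to their median its log2 fold change was -0.19, with the deposited normalised values -0.03 and without DMSO replicate 1 -0.01.

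**Figure D2:**
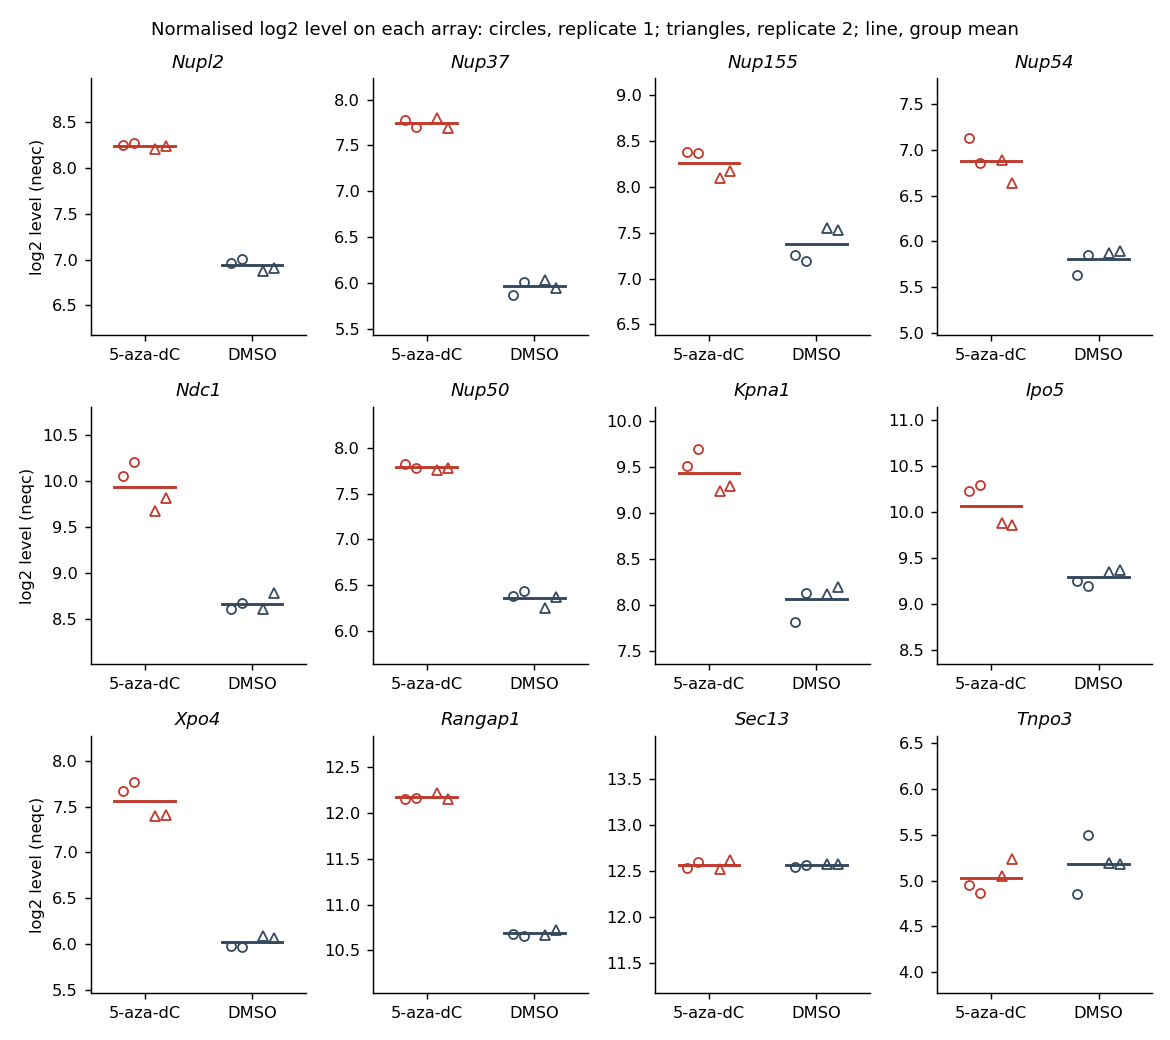
Normalised log2 level (y axis) on each array for the leading gene of each role and for Sec13 and Tnpo3, with 5-aza-dC left of DMSO, circles for replicate 1, triangles for replicate 2 and a line at the group mean. Each panel spans the same number of log2 units, so the step in Nup37 is the highest, while the Sec13 and Tnpo3 arrays of the groups overlap.

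The inner ring, the central channel and the membrane anchors had fewer members on the array. Nup155, a scaffold subunit of the inner ring, had log2 levels of 8.37 and 8.14 in 5-aza-dC, against 7.22 and 7.54 in DMSO, and rose by 0.88 ± 0.15 (limma adjusted p = 0.00473), with 0.40 to 1.12 over its 3 kept probes. Nup93, which links the inner ring to the channel, had a log2 fold change of 0.36 (adjusted p = 0.0556), and its adjusted p was 0.0116 without 5-aza-dC replicate 2 and 0.0939 without 5-aza-dC replicate 1. Nup188, the remaining inner ring gene on the array, was undetected on every array.

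The FG nucleoporins of the central channel, Nup54, Nupl1 (also called Nup58) and Nup62, form 1 complex. Nup54 had 6.99 and 6.76 in 5-aza-dC, against 5.74 and 5.88 in DMSO, and rose by 1.07 ± 0.12 (limma adjusted p = 0.00112). Nupl1 had 9.66 and 9.13 in 5-aza-dC, against 8.55 and 8.85 in DMSO, and rose by 0.69 ± 0.20 (limma adjusted p = 0.0333). Nupl1 had the highest SE of the 42 genes: without 5-aza-dC replicate 1 the log2 fold change was 0.43, and without DMSO replicate 1 the adjusted p was 0.147. Its 3 kept probes gave 0.68 to 1.24. Nup62 had a log2 fold change of 0.32 (adjusted p = 0.0616), with 10.70 and 10.69 in 5-aza-dC, against 10.39 and 10.36 in DMSO. Those groups did not overlap either, and the adjusted p of Nup62 was 0.0480 without 5-aza-dC replicate 2 and 0.0593 without 5-aza-dC replicate 1.

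Ndc1, a transmembrane nucleoporin that anchors the pore in the envelope, had 10.13 and 9.75 in 5-aza-dC, against 8.64 and 8.69 in DMSO, and rose by 1.27 ± 0.15 (limma adjusted p = 0.00127). Aaas, whose protein aladin is held at the pore by Ndc1 and is mutated in triple A syndrome in humans, had 9.94 and 9.92 in 5-aza-dC, against 9.17 and 9.18 in DMSO, and rose by 0.75 ± 0.11 (limma adjusted p = 0.00214). Its 2 probes gave 0.75 and 0.78. The third anchor on the array, Nup210, was undetected on every array.

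On the nuclear face, Nup50, a mobile basket nucleoporin that helps importin alpha let go of its cargo, had 7.80 and 7.77 in 5-aza-dC, against 6.41 and 6.31 in DMSO. Both 5-aza-dC cultures lay well above both DMSO cultures, a rise of 1.42 ± 0.10 (limma adjusted p = 0.000222). The size rests on the probe: its 3 kept probes ran from 0.25 to 1.42, and their mean gave 0.70. The other basket gene on the array, Nup153, was undetected on every array, so the basket is described by Nup50 alone.

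On the cytoplasmic face, Nupl2, an FG nucleoporin of the mRNA export platform, had 8.26 and 8.22 in 5-aza-dC, against 6.99 and 6.89 in DMSO, and rose by 1.30 ± 0.10 (limma adjusted p = 0.000298). Rae1, an mRNA export factor that binds Nup98, had 9.70 and 9.53 in 5-aza-dC, against 9.12 and 9.20 in DMSO, and rose by 0.45 ± 0.12 (limma adjusted p = 0.0217). The call for Rae1 was lost without DMSO replicate 1 (adjusted p = 0.219) and without DMSO replicate 2 (adjusted p = 0.140). Ranbp2, the large filament protein that docks Rangap1, had a log2 fold change of 0.40 (adjusted p = 0.0508) and Nup88, a partner of the filaments, one of 0.35 (adjusted p = 0.119). Both rest on the 5-aza-dC culture used: Ranbp2 passed without 5-aza-dC replicate 2 (adjusted p = 0.00326) and had 0.26 without replicate 1 (adjusted p = 0.106), and Nup88 passed without replicate 2 (adjusted p = 0.00929) and had 0.19 without replicate 1 (adjusted p = 0.273). The 4 kept probes of Nup88 gave 0.19 to 0.67, and their mean passed, at 0.46 (adjusted p = 0.0185). Nup98, whose messenger RNA encodes both Nup98 and the Y complex subunit Nup96, had 7.58 and 7.33 in 5-aza-dC, against 7.29 and 7.50 in DMSO. Its groups overlapped and its log2 fold change was 0.06 (adjusted p = 0.729), which turned to -0.04 with arrays scaled to their median, -0.04 without DMSO replicate 1 and -0.06 without 5-aza-dC replicate 1.

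Importin alpha adaptors read classical nuclear localisation signals and hand the cargo to importin beta, and the 4 adaptors tested all rose. Kpna1 had 9.60 and 9.27 in 5-aza-dC, against 7.97 and 8.15 in DMSO, and rose by 1.38 ± 0.15 (limma adjusted p = 0.000901). Kpna2 had 9.93 and 9.57 in 5-aza-dC, against 8.67 and 8.67 in DMSO, and rose by 1.08 ± 0.15 (limma adjusted p = 0.00197). Kpna3 had 9.71 and 9.53 in 5-aza-dC, against 8.67 and 8.57 in DMSO, and rose by 1.00 ± 0.12 (limma adjusted p = 0.00123). In each of them 5-aza-dC replicate 1 was the highest culture and no replicate of one group reached the other. Kpna6 rose by 0.63 (adjusted p = 0.00912), with a value of 0.35 from the deposited normalised values and of 0.37 with a background offset of 50. Kpna4 and Kpna7 were undetected on every array.

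The importin beta family, whose members bind Ran-GTP and carry cargo themselves, was more mixed, with 3 of 7 genes higher. Ipo5, an import receptor of ribosomal proteins, had 10.26 and 9.87 in 5-aza-dC, against 9.22 and 9.36 in DMSO, and rose by 0.78 ± 0.16 (limma adjusted p = 0.00955, and 0.0618 without DMSO replicate 1). Tnpo1, the receptor of hnRNP proteins, had 5.46 and 5.32 in 5-aza-dC, against 4.82 and 4.82 in DMSO, and rose by 0.58 ± 0.10 (limma adjusted p = 0.00427). It was dim, detected on 4 of 4 arrays in 5-aza-dC and on 1 of 4 in DMSO, and its log2 fold change was 0.29 with a background offset of 50 and 0.28 from the deposited normalised values. Kpnb1, importin beta itself, had 10.53 and 10.35 in 5-aza-dC, against 9.87 and 9.91 in DMSO, and rose by 0.55 ± 0.12 (limma adjusted p = 0.0123). Its call was lost without either DMSO culture (adjusted p = 0.147 without replicate 1 and 0.121 without replicate 2).

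The other import receptors did not pass. Tnpo2, a close relative of Tnpo1, had a log2 fold change of 0.19 (adjusted p = 0.173), and Ipo4, a histone importer, one of 0.16 (adjusted p = 0.299). Ipo13, which works in both directions, had -0.12 (adjusted p = 0.457) and Tnpo3, the receptor of splicing factors of the SR family, -0.15 (adjusted p = 0.296). These were 2 of the 3 negative values in the family. The 2 technical arrays of DMSO replicate 1 gave Tnpo3 log2 levels of 4.85 and 5.50, a gap wider than its difference between groups and the widest gap of any gene tested in the family. Ipo7 was undetected on every array.

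Among the exportins, Xpo4, which carries the translation factor eIF5A and Smad3 out of the nucleus, had 7.72 and 7.40 in 5-aza-dC, against 5.97 and 6.08 in DMSO. The groups lay far apart, and Xpo4 rose by 1.54 ± 0.14 (limma adjusted p = 0.000463), with 1.44 from its other probe. Cse1l, which returns importin alpha to the cytoplasm, had 10.39 and 9.93 in 5-aza-dC, against 8.95 and 9.17 in DMSO, and rose by 1.10 ± 0.18 (limma adjusted p = 0.00406). Xpo5, the exporter of microRNA precursors, had 8.29 and 8.39 in 5-aza-dC, against 7.87 and 7.96 in DMSO, and rose by 0.43 ± 0.11 (limma adjusted p = 0.0181). The call for Xpo5 was lost without DMSO replicate 1 (adjusted p = 0.200), without DMSO replicate 2 (adjusted p = 0.114) and with arrays scaled to their median (adjusted p = 0.0546). Xpo6, the exporter of actin with profilin, had a log2 fold change of 0.36 (adjusted p = 0.0997, 0.00553 without 5-aza-dC replicate 2, and a log2 fold change of 0.19 with an adjusted p of 0.248 without 5-aza-dC replicate 1) and Xpo7 one of 0.17 (adjusted p = 0.200). Xpo1, the general exporter of proteins with leucine-rich signals, had -0.09 (adjusted p = 0.457), but its probe was detected on 1 of 4 arrays in each group and so measured it poorly.

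In the Ran cycle, the 3 regulators of Ran rose, while Ran itself did not pass. Rangap1 had 12.16 and 12.18 in 5-aza-dC, against 10.67 and 10.70 in DMSO, and rose by 1.48 ± 0.13 (limma adjusted p = 0.000426). Ranbp1, which helps Rangap1 act on Ran-GTP released from export complexes, had 12.31 and 12.38 in 5-aza-dC, against 11.07 and 10.87 in DMSO, and rose by 1.38 ± 0.15 (limma adjusted p = 0.000818). Rcc1 had 7.42 and 7.60 in 5-aza-dC, against 6.35 and 6.40 in DMSO, and rose by 1.14 ± 0.11 (limma adjusted p = 0.000625). In these genes the 5-aza-dC cultures were close to each other and at least 1 log2 unit above the DMSO cultures. Ran had 8.75 and 8.37 in 5-aza-dC, against 8.12 and 8.12 in DMSO, a log2 fold change of 0.43 ± 0.15 (limma adjusted p = 0.0517). Its cultures did not overlap. Without 5-aza-dC replicate 2 the adjusted p was 0.00101, and without 5-aza-dC replicate 1 the log2 fold change was 0.25 (adjusted p = 0.103). The difference in fold change between Ran and its regulators was not tested.

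The 2 cultures of the 5-aza-dC group did not lie equally far from the DMSO mean. The median log2 difference of the 42 genes from the DMSO mean was 0.77 in 5-aza-dC replicate 1 and 0.54 in replicate 2, and replicate 1 was the higher of the pair in 31 of the 42 genes (73.8%), against 56.6% of all genes tested. Among the pore subunits it was the higher in 18 of 21 genes and among the soluble factors in 13 of 21. Replicate 1 was the higher in 3 of 6 exportins and in 1 of 4 genes of the Ran cycle. The DMSO cultures differed as well: DMSO replicate 1 was the higher of its pair in 10 of the 42 genes, against 4455 of all 9502 genes tested. Over all genes the log2 difference between the 2 replicates had a standard deviation of 0.32 in 5-aza-dC and 0.17 in DMSO. A difference in drug response between the 2 5-aza-dC cultures was not tested.

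**Figure D3:**
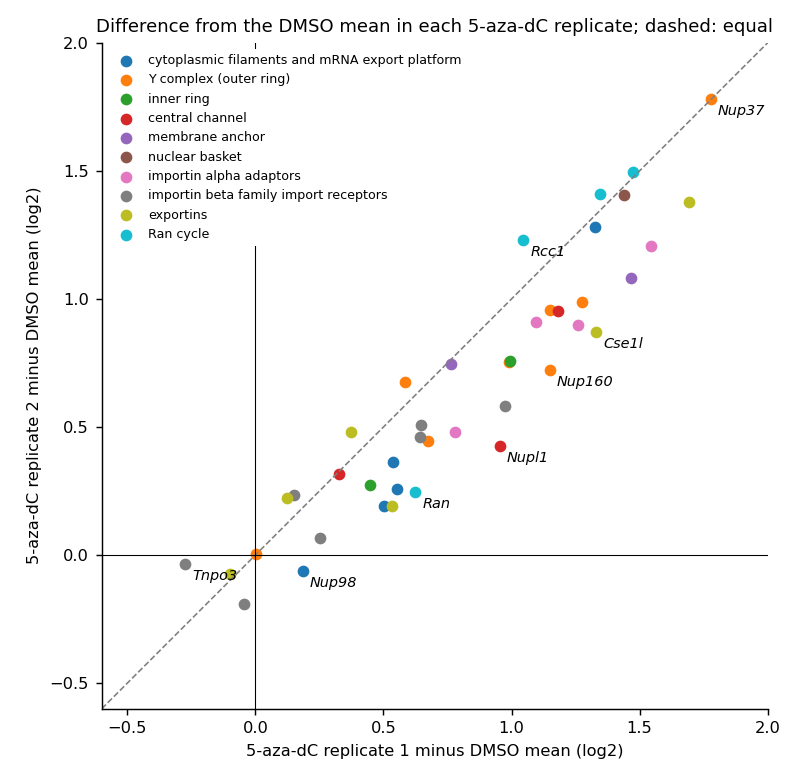
Log2 difference from the DMSO mean in 5-aza-dC replicate 1 (x axis) and in 5-aza-dC replicate 2 (y axis) for each of the 42 genes, coloured by role. Most points lie below the dashed line of equal differences (31 of 42), while Rangap1, Ranbp1 and Rcc1 lie on or above it.

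Several probes per gene allowed a look within genes. The family had 70 probes on the array, of which 59 were kept. When all kept probes of the array were fitted singly, 40 of these were higher, 0 lower and 19 did not pass. The 40 include the only probes of Ran (limma adjusted p = 0.0475) and Ranbp2 (limma adjusted p = 0.0477), which did not pass as genes. The share of all kept probes of the array called higher was not counted, so these counts are a description only. A positive log2 fold change was found in 56 of the 59, and the share over all kept probes was not counted for this either. By gene, 4620 of all 9502 genes tested had a positive value. In each of the 10 genes with several kept probes every probe was positive, and in 3 of them every probe was called higher. Technical arrays of a culture differed by a median of 0.14 log2 units at their widest pair.

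As pore subunits, 15 of 21 genes were higher (median log2 fold change 0.75), and as soluble receptors, adaptors and Ran cycle genes, 13 of 21 (median 0.58). Neighbouring pathways moved as follows. Of 17 tested mRNA export factors, which escort mature messenger RNA to the pore, 10 were higher and 0 lower (10 and 0 at an unadjusted p under 0.05; median 0.57), with Alyref at 1.06 and Ddx39a at 0.94. Of 9 other pore and transport factors outside the symbol rule 5 were higher and 0 lower (5 and 0 unadjusted; median 0.38), led by Ahctf1 at 1.10, whose protein Elys seeds new pores on chromatin, and Pom121, a membrane nucleoporin, at 0.85. Of 18 genes of the nuclear envelope and lamina 8 were higher and 1 lower (9 and 3 unadjusted; median 0.29): Tmem43 rose by 1.10 and Lmnb2, a B-type lamin, by 0.93, while Emd, which encodes emerin, fell by 0.34.

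Genes of the cell division cycle were mostly higher as well. Of 64 proliferation genes tested 51 were higher and 1 lower, with a median log2 fold change of 0.91, led by Ccne2, cyclin E2, at 2.88 and Cdc6, a replication licensing factor, at 2.50. The gene that was lower was Psrc1, undetected on every 5-aza-dC array. Summed over these 64 genes, the normalised levels on the linear scale were 77828 and 67940 in 5-aza-dC, against 41541 and 42080 in DMSO. 5-aza-dC replicate 1 was the higher of its pair in 50 of the 64 genes (78.1%), as it was in most nuclear pore genes. The part of proliferation in the values of the nuclear pore and transport genes was not tested.

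**Figure D4:**
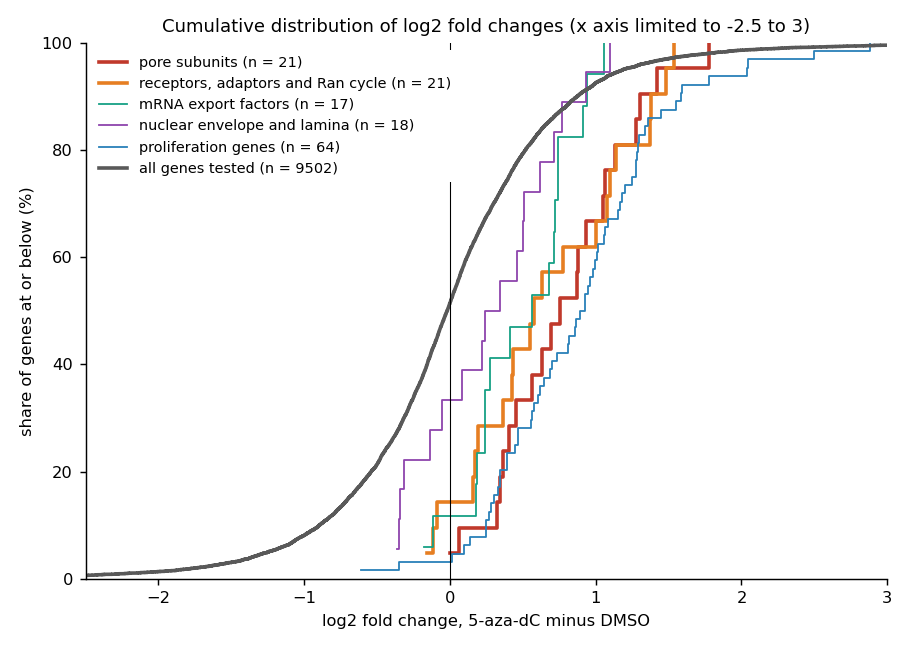
Cumulative share of genes (y axis, percent) at or below a log2 fold change (x axis, 5-aza-dC minus DMSO) for the pore subunits, the soluble factors, 3 other gene lists and all 9502 genes tested. The curves of the pore subunits and soluble factors lie right of all genes, with medians of 0.75 and 0.58 against -0.02, and left of the proliferation genes at most levels (median 0.91).

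Markers of other cell types and of the fibroblasts themselves also differed between the groups. Of 11 fibroblast markers tested 9 were lower and 1 higher, with summed levels of 20797 and 17164 in 5-aza-dC, against 37212 and 43839 in DMSO. Col3a1, a fibrillar collagen, fell by 4.50 and Dcn, the proteoglycan decorin, by 2.80, while Thy1 rose by 0.42. Lum, the proteoglycan lumican, was undetected on every 5-aza-dC array, and the other fibroblast markers were detected on all arrays. Of 4 epithelial markers tested 3 were higher and 0 lower (3 and 0 at an unadjusted p under 0.05), with summed levels of 1377 and 1434 in 5-aza-dC, against 98.4 and 95.7 in DMSO. The gain was in keratins alone: the fourth marker, Cdh1, had a log2 fold change of 0.07 and did not pass (limma adjusted p = 0.651). Cdh1 was detected on 4 of 4 arrays in 5-aza-dC and on 2 of 4 in DMSO. Krt8, Krt14 and Krt18 were undetected on every DMSO array, and Krt5 was undetected on all arrays. Against the lowest level detected on each DMSO array the log2 fold change was at least 4.80 for Krt8, 3.54 for Krt14 and 2.89 for Krt18. Ptprc, Adgre1 and Itgam of blood, Cdh5, Kdr and Tek of endothelium, and Sox2 and Gfap of neural cells were undetected on all 8 arrays. Of the 1 blood and 2 neural markers tested, Cd3e of T cells, undetected on every 5-aza-dC array, was lower (log2 fold change -0.78 at its bound), Map2 of neurons fell by 1.18 and Tubb3 of neurons, at 0.22, did not pass (limma adjusted p = 0.133). No endothelial marker was tested: the remaining one, Pecam1, was detected on 1 of 4 DMSO arrays and on 0 of 4 in 5-aza-dC. The part of all these markers in the result was not tested. In bulk samples a change in the make-up of the cells and a change of RNA per cell cannot be told apart.

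Mean signals were 295 to 376 intensity units per array, and 12841 to 13595 of 25697 probes were detected per array. Over all probes, which are not independent, log2 levels correlated with r = 0.998 between technical arrays, r = 0.997 between DMSO replicates, r = 0.993 between 5-aza-dC replicates and r = 0.957 to 0.963 between groups. No probe named for Trp53 stands in the annotation used, so the deletion was not checked here. Dnmt1, a target of the drug, had 9.47 and 9.63 in 5-aza-dC, against 8.71 and 8.69 in DMSO.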

How the data were processed

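Total RNA of the 8 arrays was read as the authors deposited it: a mean bead signal per probe on the linear scale, and a detection p-value per probe. The signals were taken to be without background subtraction, which the column headers used here do not state. A second deposited table of normalised intensity, which the authors computed with lumi (version not given in the sources used here), served as an alternative. Signals were background-corrected and quantile-normalised with neqc (offset 16, with the moments of the negative controls taken from the detection p-values) in limma 3.58.1 under R 4.3.3, on the log2 scale. A probe was kept if 2 or more of the 8 arrays detected it at p under 0.05 (14308 of 25697 probes), and each of 9502 genes was tested by its brightest kept probe. Probes were named through Entrez identifiers (23962), accessions (9) or their own symbol (7), and 1719 were not listed. They were not searched for matches to gene copies.

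Technical arrays were averaged and groups compared with lmFit and eBayes (variance trend, prior degrees of freedom 3.82, residual 2, two-sided), with Benjamini-Hochberg adjustment over all tested genes. The fit was tested on simulated data. Precision is limited by the number of arrays (median standard error of a log2 fold change 0.12). No arrays held identical values (0 pairs). Full values are given for up to 3 genes per role past the threshold, by size of the fold change, and up to 2 per direction in other lists; Sec13, Nup62, Nup98, Ran, Tnpo3, Psrc1 and Dnmt1 were given values after these were seen. The genes, role groups, marker lists and motifs were chosen with earlier results of these data known. Promoter sequences are those of RefSeq (GRCm38.p6), with the most upstream start of each gene used and chromosome 18 left out.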

Additional observations from a re-analysis of the deposited data

How the results depend on the processing

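The number of nuclear pore and transport genes called higher was 26 to 34 over 10 other settings and 21 to 34 when 1 culture was left out, against 28, and 0 were lower in each of these (unadjusted counts of 0 to 1). Their median log2 fold change stayed between 0.54 and 0.77. Of the 28 genes, 21 were called higher under every setting run. Leaving out 1 culture gave 1568 to 2943 genes higher over the whole array and 1676 to 2963 lower, and the single culture left in a group was then assumed to vary like the other group. The log2 fold change of Sec13 turned to -0.194 with arrays scaled to their median and to -0.0296 with the deposited normalised values, and ranged from -0.00698 (without DMSO replicate 1) to 0.0133 when 1 culture was left out. That of Nup98 turned to -0.0448 with arrays scaled to their median and ranged from -0.0605 (without 5-aza-dC replicate 1) to 0.184 when 1 culture was left out, with -0.0441 without DMSO replicate 1. The cause was not tested, and neither gene passed in any setting. Median scaling also gave 2159 genes higher and 2817 lower and a median of all genes of -0.09. The labels do not state whether replicate numbers pair the cultures, and the main fit used no pairing. Deviations of same-numbered cultures from their group means correlated at -0.63, so 5-aza-dC replicate 1 tended to deviate as DMSO replicate 2 did. With the replicate number as a block 26 of the 42 genes were higher (2177 higher and 2208 lower over the array), and Rae1 (adjusted p = 0.0782) and Xpo5 (adjusted p = 0.0620) lost their call. With crossed numbers, a setting chosen after seeing the data, 34 were higher (3043 higher and 3128 lower over the array). The slide as a block was not run, since the headers used here name no slide. The background offset shrinks differences of dim genes such as Tnpo1, Tnpo3 and Xpo1.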
